A study of Mus musculus with 16 samples.

Results

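The genes described here are 9 keratin, bile duct and liver progenitor markers: the keratins Krt8, Krt18, Krt19, Krt7 and Krt23, the transcription factor Sox9, the surface protein Epcam, the tight junction protein Cldn7 and the secreted phosphoprotein Spp1 (osteopontin). They were chosen by name, and all 9 were matched by symbol among the 54838 genes of the count files. Messenger RNA was sequenced from whole liver of wild-type male C57BL/6J mice in 4 groups. In the injection experiment, 3 samples came after carbon tetrachloride (CCl4), a solvent toxic to hepatocytes, mixed 1:1 by volume with olive oil, and 3 control samples after olive oil, injected into the peritoneum at 2 µL per g, and both were sampled 3 days after the injection. In the surgical experiment, 5 baseline samples were the liver resected at day 0 of partial hepatectomy (PH, a surgical loss of liver mass that the remnant regrows), and 5 samples were liver 3 days after PH. No age, pooling of animals or transgene is named in the labels, and the olive oil vehicle is shared by both injection groups. The series title places the samples in a study of liver lipids during regeneration.

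Keratins are intermediate filament proteins, and each filament needs a type I and a type II partner. Krt8 (type II) and Krt18 (type I) form the pair of hepatocytes, whereas cholangiocytes, the cells that line bile ducts, also make Krt7 (type II) and Krt19 (type I). Sox9, Epcam and Spp1 mark cholangiocytes and the ductular cells that expand in some liver injuries. Spp1 is also made by activated macrophages and stellate cells, and mesothelial cells of the liver surface make Krt8, Krt18, Krt19 and Krt7. In whole liver, fewer cells of a type and less RNA per cell cannot be told apart.

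The resected day 0 livers had total counts of 3271398 to 8647503 and the day 3 remnants 2795909 to 4391002, against 4295169 to 5221957 with olive oil and 4738196 to 6218526 with CCl4. Levels are CPM, counts scaled to library size with TMM factors, and 3 counts in 1 sample, the limit that a count of 0 allows, correspond to 0.368 to 1.03 CPM. Levels are compared between genes only per kilobase of exon (RPKM). The defining hepatocyte transcript Alb was at 47853 to 100360 CPM in every sample. A gene rose or fell where edgeR's quasi-likelihood test gave a Benjamini-Hochberg adjusted p under 0.05 over all genes tested. PH day 3 replicate 12 stood apart from the other libraries. It had 154 CPM summed over 24 other keratins, against 0.343 to 5.29 CPM in the other 15 samples. That sum came mostly from Krt13 (308 counts, 69.6 CPM) and Krt4 (274 counts, 61.9 CPM), the keratin pair of stratified squamous lining such as that of the oesophagus. Krt78 (37 counts) and Krt5 (26 counts), further keratins of stratified epithelium, were also present in it, and these genes were named after their values were seen. Changes of the 9 genes after PH are given with and without it, and changes of other genes after PH include it. CCl4 replicate 1 also stood apart, with a chi-square per degree of freedom of 71.8 to 72.3 against the other CCl4 samples, where all other pairs of replicates were at 5.51 to 23.8. Changes of the 9 genes after CCl4 are likewise given without it, and those of other genes include it.

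Per kilobase, Krt18 was the highest of the 9 genes in all 4 groups. Its mean was 117 RPKM with olive oil, 289 RPKM with CCl4, 144 RPKM at PH day 0 and 308 RPKM at PH day 3. Its range over samples did not overlap that of the next gene in any group. Krt8 (52.3, 113, 55.9 and 108 RPKM in the same order) and Spp1 (39.9, 133, 66.2 and 102 RPKM) came next, and their ranges overlapped each other. Sox9 followed at 1.05 to 2.21 RPKM. The group means of the other 5 genes lay between 0.0644 RPKM (Krt7 with olive oil) and 1.92 RPKM (Krt19 with CCl4), and neighbours in that order overlapped in every group. Only Krt8, Krt18, Sox9 and Spp1 passed the filter on low counts in each comparison. The highest count in any sample was 33 for Krt19, 15 for Krt7, 19 for Krt23, 16 for Epcam and 9 for Cldn7.

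After CCl4, 3 of the 4 tested genes (Krt8, Krt18 and Spp1) rose and none fell, where 11.3% of all 11337 genes tested rose and 11.6% fell. The median log2 fold change of the 4 was 1.18, against 0.006 over all genes tested. At PH day 3, 2 of the 4 (Krt8 and Krt18) rose and none fell, where 9.73% of 10546 genes rose and 8.01% fell, and their median was 0.81 against -0.0053. The unadjusted p was under 0.05 for 4 of 4 genes after CCl4 and for 2 of 4 after PH. The other 5 genes had too few counts to be tested in either comparison. A gene low in the controls can pass the filter through the group in which it is high, so listed genes with under 10 counts in every control sample are named as such below and given by their levels. The counts and medians of the lists include such genes and can be raised by them.

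Krt8 (ENSMUSG00000049382, chromosome 15, 101996698 to 102004482, minus strand of GRCm38) was at 94.4, 94.6 and 118 CPM with olive oil and at 205, 207 and 250 CPM with CCl4. Every CCl4 sample was above every olive oil sample. Its pseudogene Krt8-ps had 3 counts over all samples. The change was 1.09 ± 0.16 on the log2 scale (± SE, n = 3 per group, edgeR adjusted p = 0.00125), and 1.14 without CCl4 replicate 1 (adjusted p = 2.70e-05). In the resected livers Krt8 was at 99.4, 101, 104, 117 and 126 CPM, and at PH day 3 at 177, 210, 214, 229 and 231 CPM, again with no overlap. That change was 0.97 ± 0.10 (n = 5 per group, edgeR adjusted p = 1.31e-07), and 0.94 without PH day 3 replicate 12 (adjusted p = 5.41e-07).

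Krt18 (ENSMUSG00000023043, chromosome 15, 102028180 to 102032027, plus strand) was at 153, 162 and 191 CPM with olive oil and at 363, 433 and 448 CPM with CCl4. All 3 CCl4 samples were above the controls, and the change was 1.28 ± 0.18 (edgeR adjusted p = 0.000853), or 1.23 without CCl4 replicate 1 (adjusted p = 1.40e-05). At PH day 0 the values were 167, 167, 206, 228 and 269 CPM and at PH day 3 they were 371, 417, 439, 487 and 496 CPM. The groups did not overlap, and the change was 1.10 ± 0.12 (edgeR adjusted p = 3.08e-06), or 1.05 without PH day 3 replicate 12 (adjusted p = 1.17e-05). The difference between the 2 responses (CCl4 minus PH) was 0.15 ± 0.17 for Krt8 (95% interval -0.19 to 0.49) and 0.21 ± 0.21 for Krt18, with edgeR adjusted p = 0.70 and 0.653, so the difference did not pass the test and its interval spans differences in both directions.

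**Figure D1:**
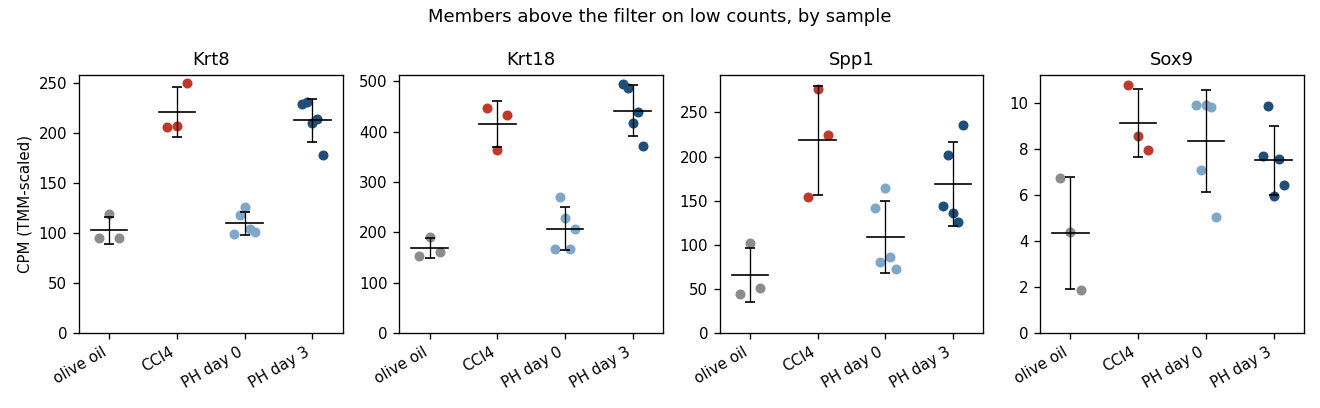
TMM-scaled CPM (vertical axes, from 0) of Krt8, Krt18, Spp1 and Sox9 in each of the 16 samples (points), with the mean (line) and SD (bar) of each group. Krt8 and Krt18 of both treated groups lie above their own controls with no overlap, while Spp1 and Sox9 overlap between PH day 0 and PH day 3.

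The start sites of Krt8 and Krt18 lie 23.7 kb apart on chromosome 15 on opposite strands, transcribed away from each other, with no other annotated gene wholly between them. Their levels had a Pearson correlation of 0.97 over the 16 samples, each the highest partner of the other among 11867 genes, as a description of samples that share libraries and groups. The next closest genes were Stt3b, a subunit of oligosaccharyltransferase, and Ifi27l2b for Krt8 (both 0.97), and Lrrc59, a protein of the endoplasmic reticulum (0.96), and Net1 (0.95) for Krt18. The promoters of the 3 genes that rose after CCl4 are shown as the sequence at which these moving genes start. Promoter entries from RefSeq (GRCm38.p6, 250 bases before to 50 after a start) existed for 7 of the 9 genes. Capitals mark matches, on either strand, to the TATA box TATAAA, the AP-1 core TGANTCA, the TEAD core GGAATG, the RBPJ core TGGGAA, the GC box GGGCGG or the box CCAAT, and each sequence runs 5′ to 3′ along its gene.
Krt8, chr15:102004293-102004592, minus strand: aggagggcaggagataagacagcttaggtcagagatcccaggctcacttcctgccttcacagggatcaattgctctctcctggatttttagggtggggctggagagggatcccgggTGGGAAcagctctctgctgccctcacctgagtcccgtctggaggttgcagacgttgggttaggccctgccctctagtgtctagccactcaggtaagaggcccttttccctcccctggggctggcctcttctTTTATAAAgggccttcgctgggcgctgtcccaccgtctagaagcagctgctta
Krt18, chr15:102027966-102028265, plus strand: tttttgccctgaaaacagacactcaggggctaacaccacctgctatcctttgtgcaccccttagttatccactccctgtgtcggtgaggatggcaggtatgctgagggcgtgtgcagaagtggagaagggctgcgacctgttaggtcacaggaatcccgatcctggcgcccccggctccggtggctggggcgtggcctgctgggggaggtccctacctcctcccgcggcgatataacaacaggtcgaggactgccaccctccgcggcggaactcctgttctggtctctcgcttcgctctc
Spp1, chr5:104434861-104435160, plus strand: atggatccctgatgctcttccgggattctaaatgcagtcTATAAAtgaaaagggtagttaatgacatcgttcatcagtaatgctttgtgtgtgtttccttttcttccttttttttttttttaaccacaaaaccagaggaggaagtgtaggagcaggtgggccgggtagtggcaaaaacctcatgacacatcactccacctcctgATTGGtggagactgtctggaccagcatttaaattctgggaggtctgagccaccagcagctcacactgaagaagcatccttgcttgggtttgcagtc
The Krt8 window held the TATA box letters on both strands, overlapping, and 1 RBPJ core. The Krt18 window held none of the 6 motifs, and the Spp1 window shown held 1 match to the TATA box and 1 to the CCAAT box, the latter on the opposite strand. A second Spp1 window, at chr5:104435942-104436241 with a GC content of 36.7%, held none of the 6 motifs and is not printed. Of 32851 promoters of this length, 13.6% held the TATA box letters, 25.6% the RBPJ core and 37.4% the CCAAT box. The AP-1 core was in 7.81%, the TEAD core in 14.7% and the GC box in 35.7%. These are matches of letters and say nothing of binding. The GC content of the windows shown was 58.0% for Krt8, 61.3% for Krt18 and 45.3% for Spp1, against a median of 52.7%.

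The counts of Krt8 per count of Krt18 within a library need no scaling between samples. The ratio was 0.617, 0.619 and 0.585 with olive oil and 0.459, 0.570 and 0.577 with CCl4, lower in all 3 treated samples. The mean was 0.607 ± 0.019 (SD, n = 3) against 0.535 ± 0.066, a log2 difference of -0.19 with a two-sided exact permutation p = 0.1, the smallest that 3 against 3 can give. Without CCl4 replicate 1, the lowest of the group, the difference was -0.08. At PH day 0 the ratio was 0.436 to 0.622 (median 0.550) and at PH day 3 it was 0.462 to 0.503 (median 0.478), so the groups overlapped. The log2 difference of -0.15 had an exact permutation p = 0.151, and was -0.14 without PH day 3 replicate 12. Of 11 alternatives, 10 gave the same call. The 1 that passed left out PH day 0 replicate 12, the lowest of its group (-0.23, exact permutation p = 0.0159). That sample lies against the direction of the difference, so nothing is drawn from that p. With lengths taken into account the mean ratio of levels was 0.445 with olive oil, 0.393 with CCl4, 0.395 at PH day 0 and 0.353 at PH day 3.

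**Figure D2:**
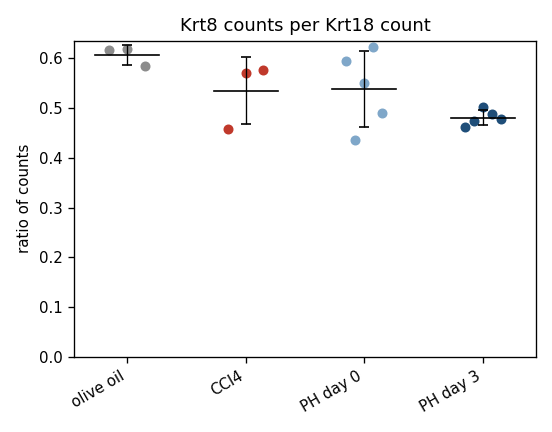
Ratio of Krt8 counts to Krt18 counts (vertical axis, from 0) in each sample (points), with the mean (line) and SD (bar) of each group. All 3 CCl4 samples (0.459 to 0.577) lie below the 3 olive oil samples (0.585 to 0.619), and PH day 3 (0.462 to 0.503) lies within the range of PH day 0.

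The biliary keratins were measured near the counting limit. Krt19 (ENSMUSG00000020911, chromosome 11, 100140810 to 100148665, minus strand) had 3, 5 and 1 counts in olive oil replicates 1 to 3 and 33, 26 and 3 counts in CCl4 replicates 1 to 3. In CPM the CCl4 samples were at 6.98, 3.19 and 0.489, so that CCl4 replicate 3 lay within the olive oil range of 0.235 to 1.10 CPM. At PH day 0 its counts were 1 to 6 (0.230 to 1.60 CPM), and at PH day 3 they were 14, 2, 22, 7 and 5 in replicates 12 to 16 (0.519 to 6.89 CPM), with overlap. Pooled over a group, Krt19 was at 0.703 CPM with olive oil (95% Poisson interval 0.321 to 1.33, counting error only) and 3.26 CPM with CCl4 (2.50 to 4.18). It was at 0.706 CPM at PH day 0 (0.403 to 1.15) and 2.67 CPM at PH day 3 (1.98 to 3.51).

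Krt19 did not pass the filter in either comparison. In edgeR fits without a filter its change was 2.26 ± 0.74 after CCl4 (adjusted p = 0.0178, where 8.45% of 19592 genes rose) and 1.85 ± 0.64 after PH (adjusted p = 0.0346, where 6.96% of 20257 genes rose). The first call ended without CCl4 replicate 1 (1.42, edgeR adjusted p = 0.312), CCl4 replicate 2 (2.32, 0.0508) or olive oil replicate 3 (1.86, 0.119). The second ended without PH day 3 replicate 14 (1.22, edgeR adjusted p = 0.344), PH day 3 replicate 12 (1.79, 0.0744) or PH day 0 replicate 12, 13, 15 or 16 (1.63 to 1.86, 0.0546 to 0.104). The samples highest in Krt19 were also high in mesothelial markers. The sum over 9 mesothelial markers was 22.2, 32.7 and 4.89 CPM in CCl4 replicates 1 to 3 and 34.4, 10.6, 29.8, 12.4 and 6.12 CPM in PH day 3 replicates 12 to 16. It was 0.235 to 4.75 CPM with olive oil and 1.05 to 2.06 CPM at PH day 0. Msln, a surface protein that defines mesothelium, was at most 0.343 CPM at PH day 0 and at 3.06 to 13.1 CPM at PH day 3, with the highest value in replicate 12. It was the 1 marker of the 9 that was tested after PH and entered that test through the day 3 group, so no test is drawn on. The part of these cells in the Krt19 values was not tested. The genes closest to Krt19 over the 16 samples were the chemokine Ccl2 (Pearson correlation 0.86), Tmem119 (0.84) and the peptide-processing enzyme Cpe (0.84).

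Krt7 (ENSMUSG00000023039, chromosome 15, 101411043 to 101430313, plus strand), the type II partner of Krt19 in bile ducts, had 1, 4 and 1 counts with olive oil and 8, 15 and 7 with CCl4. In CPM that was 0.235 to 0.877 against 1.14 to 1.84, with no overlap, but the unfiltered change of 1.69 ± 1.01 had an edgeR adjusted p = 0.299 (1.66 without CCl4 replicate 1). At PH day 0 it had 4, 6, 1, 0 and 5 counts and at PH day 3 it had 14, 7, 6, 4 and 2 counts in replicates 12 to 16, with overlap (1.14 ± 0.73, edgeR adjusted p = 0.339). Its highest value, 3.16 CPM, was in PH day 3 replicate 12, the library with squamous keratins, without which the change was 0.78 (edgeR adjusted p = 0.589). Krt23 (ENSMUSG00000006777, chromosome 11, 99477974 to 99493137, minus strand), a type I keratin, had 0 to 2 counts with olive oil and 1, 7 and 3 with CCl4 (0.73 ± 1.39, adjusted p = 0.753, and 1.09 without CCl4 replicate 1). It was uneven at PH day 3, where replicates 12, 13 and 16 were at 2.03, 3.12 and 6.46 CPM and replicates 14 and 15 at 0.313 and 0.690 CPM, against 0.230 to 1.73 CPM at PH day 0. Its change after PH was 1.66 ± 0.66 (edgeR adjusted p = 0.0836) without a filter, and 1.73 without PH day 3 replicate 12 (adjusted p = 0.0926). It passed without PH day 0 replicate 13 (2.19, adjusted p = 0.0411), PH day 3 replicate 14 (1.94, 0.0334) or PH day 3 replicate 15 (1.91, 0.0437). Within PH day 3, replicate 14 had the highest Krt19 and the lowest Krt23, and replicate 12 was above the group median of Krt19 and at that of Krt23.

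Of the 24 other keratins, 16 had any count and none was tested in either comparison. Their sum was 0.471 to 2.19 CPM with olive oil, 1.96 to 5.29 CPM with CCl4 and 0.343 to 3.23 CPM at PH day 0. At PH day 3 it was 2.04 to 3.45 CPM in the 4 samples other than replicate 12. A list of desmosome and plakin genes also held lamins and vimentin, which are themselves intermediate filament proteins and not keratin anchors. Of the whole list, 5 of 12 tested rose after CCl4 with a median of 0.26, and 6 of 11 rose after PH with a median of 0.44. The desmosome and plakin genes among those risen after CCl4 were Ppl and Pkp1. The risen share of all genes tested was 11.3% after CCl4 and 9.73% after PH. Ppl (periplakin), a linker of keratin filaments to the cell cortex, rose by 0.90 ± 0.27 after CCl4 (edgeR adjusted p = 0.0393) and by 2.30 ± 0.18 after PH (adjusted p = 4.07e-09). The nuclear lamin Lmna rose by 1.07 ± 0.17 (adjusted p = 0.00151) and 0.72 ± 0.11 (adjusted p = 5.61e-05). Lmnb1 and Vim also rose in both comparisons, Pkp1 (under 10 counts in every control sample) after CCl4, and Dsc2 and Plec after PH, and these were named because of their calls.

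Sox9 (ENSMUSG00000000567, chromosome 11, 112782224 to 112787760, plus strand), a transcription factor of the biliary lineage, was at 6.76, 4.38 and 1.88 CPM in olive oil replicates 1 to 3 and at 10.8, 8.59 and 7.98 CPM in CCl4 replicates 1 to 3. The groups did not overlap, but the change of 1.05 ± 0.42 did not pass the test (edgeR adjusted p = 0.0956), nor did 0.93 without CCl4 replicate 1 (adjusted p = 0.128). At PH day 0 it was at 5.07, 7.08, 9.86, 9.91 and 9.94 CPM and at PH day 3 at 5.95, 6.46, 7.58, 7.68 and 9.87 CPM, with full overlap and a change of -0.11 ± 0.25 (adjusted p = 0.815). Without PH day 3 replicate 12 it was -0.12 (edgeR adjusted p = 0.824). In 2 of the 3 olive oil livers Sox9 was below the lowest resected liver, and both treated groups lay within or just above the range of the resected livers. The difference between the responses, 1.20 ± 0.46, had an unadjusted edgeR p under 0.05 and an adjusted p = 0.135. Genes closest to Sox9 across samples were Fbxl14 (Pearson correlation 0.84), Btbd3 (0.83) and Sgsm1 (0.83).

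Other Sox factors moved in both directions after CCl4, with 1 of 5 risen, 1 fallen and a median of 0.04. The risen gene, Sox4, had under 10 counts in every control sample and was at 0.240 ± 0.251 CPM with olive oil and 2.49 ± 0.336 CPM with CCl4. Sox6 fell by 1.05 ± 0.23 (edgeR adjusted p = 0.00912). After PH none of 4 passed, with a median of -0.26. Of the Notch pathway, which induces Sox9 in the biliary lineage, 2 of 8 genes tested rose after CCl4 (Notch2, 0.49 ± 0.14, adjusted p = 0.034, and Hes1) and 1 of 9 after PH (Heyl, under 10 counts in every control sample, at 1.11 ± 0.546 CPM at day 0 and 3.97 ± 0.750 CPM at day 3), with medians of 0.47 and 0.31. Over all genes tested 11.3% rose after CCl4 and 9.73% after PH. Of the YAP pathway genes, 2 of 12 rose and 2 fell after CCl4 (median -0.01), and 1 rose and 1 fell of 12 after PH (median 0.10), against 11.6% fallen after CCl4 and 8.01% after PH over all genes. The transcription partner Tead1 was at 1.28 ± 0.45 after CCl4 (adjusted p = 0.0795) and rose by 1.13 ± 0.26 after PH (adjusted p = 0.00338). Amotl2 fell by 0.79 ± 0.20 after CCl4 (adjusted p = 0.0174), and its PH value was -0.38 ± 0.15 (adjusted p = 0.0794).

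Epcam (ENSMUSG00000045394, chromosome 17, 87635979 to 87651129, plus strand), an adhesion molecule of cholangiocytes and their progenitors, showed overlapping groups in both experiments. Its counts were 4, 2 and 2 with olive oil and 5, 16 and 4 with CCl4. In replicates 12 to 16 they were 4, 11, 7, 1 and 3 at PH day 0 and 4, 4, 3, 5 and 5 at PH day 3. Pooled levels were 0.625 CPM (95% Poisson interval 0.270 to 1.23) with olive oil, 1.32 CPM (0.851 to 1.94) with CCl4, 1.15 CPM (0.749 to 1.68) at PH day 0 and 1.12 CPM (0.693 to 1.71) at PH day 3. The unfiltered changes were 0.94 ± 1.01 after CCl4 (edgeR adjusted p = 0.583, and 1.07 without CCl4 replicate 1) and -0.14 ± 0.73 after PH (adjusted p = 0.932), or -0.06 without PH day 3 replicate 12. Neither change passed the test, at 1 to 16 counts per sample.

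Cldn7 (ENSMUSG00000018569, chromosome 11, 69964779 to 69967885, plus strand), a claudin of epithelial junctions, had counts of 6, 6, 4, 4 and 2 at PH day 0 and 0, 0, 1, 0 and 1 at PH day 3, in replicates 12 to 16. All 5 baseline samples, at 0.685 to 1.49 CPM, were above all 5 day 3 samples, the highest of which was at 0.340 CPM. Summed over the groups, 22 counts at day 0 and 2 at day 3 gave a ratio of 9.10 (95% exact counting interval 2.24 to 79.8). The unfiltered change of -2.84 ± 1.16 did not pass the test (edgeR adjusted p = 0.0955), nor did -2.55 without PH day 3 replicate 12 (adjusted p = 0.183). In the injection experiment the order was the opposite, with 2, 0 and 1 counts with olive oil and 3, 9 and 6 with CCl4, again without overlap in CPM. There the ratio of CCl4 to olive oil was 4.04 (1.18 to 21.4) and the change 1.83 ± 1.32 (adjusted p = 0.41), or 2.04 without CCl4 replicate 1. The unfiltered difference between the responses, 4.70 ± 1.69, had an adjusted p = 0.129. The Cldn7 groups were separated in both experiments with opposite sign, at a few counts per sample. Neither change passed the test, nor did their difference. The share of all genes whose groups separate in this way is not given here.

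**Figure D3:**
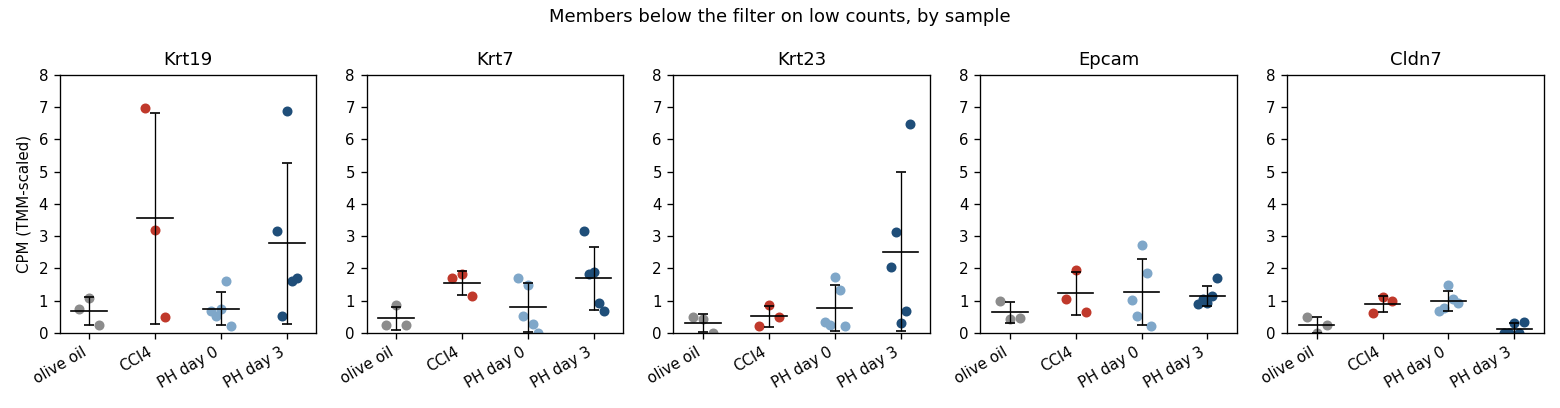
TMM-scaled CPM (vertical axes, 0 to 8) of the 5 genes under the filter on low counts in each of the 16 samples (points), with the mean (line) and SD (bar) of each group. Krt19 is spread from 0.489 to 6.98 CPM with CCl4, Krt23 from 0.313 to 6.46 CPM at PH day 3, and the 5 PH day 3 values of Cldn7 lie between 0 and 0.340 CPM.

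Among 13 other tight junction genes tested after CCl4, 3 rose, Cldn1 and F11r among them, and 1 fell (Cldn12), with a median of 0.46. Of 12 tested after PH, Cldn1 and F11r rose, with a median of 0.24. Over all genes tested 11.3% rose and 11.6% fell after CCl4, and 9.73% rose after PH. F11r (junctional adhesion molecule A) rose by 0.97 ± 0.13 after CCl4 (edgeR adjusted p = 0.000821) and by 0.54 ± 0.11 after PH (adjusted p = 0.00142).

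Spp1 (ENSMUSG00000029304, chromosome 5, 104435118 to 104441050, plus strand), which binds integrins and CD44, was at 44.5, 102 and 51.3 CPM in olive oil replicates 1 to 3 and at 154, 277 and 225 CPM in CCl4 replicates 1 to 3. All 3 CCl4 samples were above the controls, and the change was 1.71 ± 0.35 (edgeR adjusted p = 0.0132), or 1.92 without CCl4 replicate 1 (adjusted p = 0.0301). At PH day 0 it was at 72.1, 80.9, 86.6, 142 and 164 CPM and at PH day 3 at 126, 136, 144, 202 and 235 CPM. The PH groups overlapped, and the change of 0.65 ± 0.29 did not pass the test (adjusted p = 0.182), nor did 0.70 without PH day 3 replicate 12 (adjusted p = 0.216). With limma-voom in place of edgeR it passed (0.70, adjusted p = 0.0317). The difference between the responses was 1.10 ± 0.50 (adjusted p = 0.255). Reads in 309 exon bases that Spp1 shares with Gm42793 on the same strand were not counted. The genes closest to Spp1 were Ube2t, a ubiquitin-conjugating enzyme of DNA repair (Pearson correlation 0.92), the protease Adamts12 (0.91) and Rab3gap2 (0.91).

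**Figure D4:**
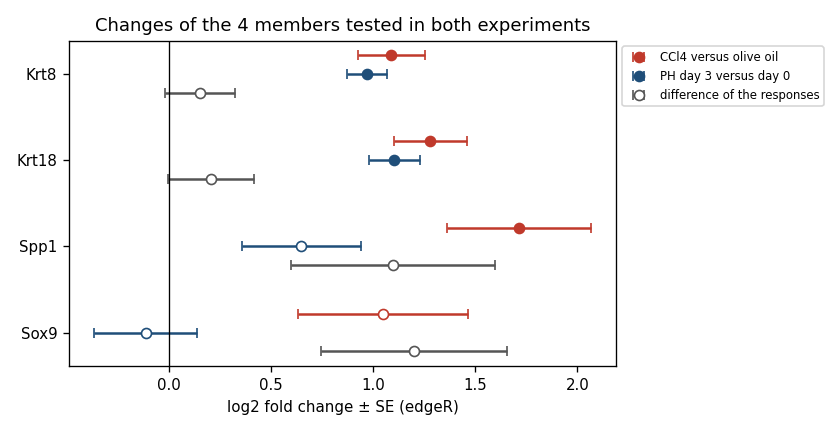
Log2 fold change with SE (horizontal axis) of the 4 genes tested in both experiments, for CCl4 against olive oil, PH day 3 against day 0, and the difference of the 2 responses. Filled points had an edgeR adjusted p under 0.05, namely Krt8 and Krt18 in both experiments and Spp1 after CCl4, and no difference was filled.

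Of 5 genes tested for the difference (these 4 and Krt19), none passed with edgeR, where 5.33% of 11868 genes were called, and 2 (Sox9 and Spp1) had an unadjusted p under 0.05. DESeq2 and limma-voom called none either. Krt19 had a difference of 0.40 ± 1.19 (edgeR adjusted p = 0.908). It entered that fit through CCl4 and PH day 3 samples in which it was high, as no control sample had over 6 counts. Injection and surgery were separate experiments with separate controls, so the challenge and the experiment cannot be told apart in these differences.

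Among the receptors of Spp1, 4 of 9 tested rose after CCl4 (Itga5, Itgav, Itgb3 and Itgb5, median 0.88) and 2 of 8 rose after PH (Itga5 and Itgb1, median 0.35). For these and the marker lists that follow, the risen share of all genes tested was 11.3% after CCl4 and 9.73% after PH. The integrin subunit Itga5 rose by 1.37 ± 0.18 after CCl4 (edgeR adjusted p = 0.000576) and by 0.94 ± 0.16 after PH (adjusted p = 0.000485). Itgb1 was at 0.45 ± 0.17 (adjusted p = 0.086) and rose by 0.40 ± 0.09 (adjusted p = 0.00442). Macrophages and stellate cells, which also make Spp1, are described here by their markers. Of the macrophage markers, 4 of 9 rose after CCl4 (1 of them, Ccr2, under 10 counts in every control sample) and 0 of 6 after PH, with summed levels of 77.3 to 228 CPM with olive oil, 283 to 370 CPM with CCl4, 104 to 161 CPM at PH day 0 and 95.3 to 213 CPM at PH day 3. Of the markers of lipid-associated macrophages, 6 of 8 rose after CCl4 (median 3.15). Of these, Cd63, Gpnmb, Mmp12 and Trem2 had under 10 counts in every control sample and entered the test through the CCl4 group. Of the rest, Cd9 and Lgals3 rose (1.25 ± 0.18 and 2.85 ± 0.50), and Ctsd and Fabp5 did not pass (0.46 ± 0.15 and 0.05 ± 0.44). After PH 3 of 4 rose (Cd9, Ctsd and Lgals3, median 0.79), and Gpnmb, Trem2 and Mmp12 were not tested. The sums were 195 to 226, 388 to 461, 192 to 252 and 245 to 313 CPM in the same order. Ctsd was the largest part of them, at 162 ± 15.5 CPM at PH day 0 and 207 ± 22.1 CPM at PH day 3. Gpnmb, which defines those macrophages, was at 44.8 ± 5.83 CPM with CCl4 and stayed at or under 0.940 CPM in every sample of the other groups. Of the stellate cell markers, 4 of 10 rose after CCl4 and 3 of 10 after PH, and Col1a1 rose by 3.84 ± 0.35 (adjusted p = 0.000389) and 2.76 ± 0.66 (adjusted p = 0.0214). The part of these cells in the Spp1 values was not tested.

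Of 18 other cholangiocyte markers listed, 7 were tested after CCl4 and 3 rose (Bicc1, Cd24a and Ddr1, median 0.48), and 6 were tested after PH and 1 rose (Ddr1, median -0.01). For these markers and the progenitor genes below, the risen share of all genes tested was 11.3% after CCl4 and 9.73% after PH. The summed levels below are of the 18 cholangiocyte markers. Their summed level was 89.0 to 114 CPM with olive oil, 134 to 149 CPM with CCl4, 99.6 to 149 CPM at PH day 0 and 115 to 149 CPM at PH day 3, so the injection groups were separated and the PH groups overlapped. Much of the sum came from Atp1b1, a sodium pump subunit made by many cells, which did not pass (0.24 ± 0.18 after CCl4, edgeR adjusted p = 0.381). Without it the sums were 36.8 to 39.3, 55.0 to 66.9, 50.9 to 87.1 and 58.9 to 71.3 CPM, with the same separation and overlap. Of the 3 risen after CCl4, Cd24a and Ddr1 had under 10 counts in every control sample. The collagen receptor kinase Ddr1 was at 0.852 ± 0.339 CPM with olive oil and 7.36 ± 1.14 CPM with CCl4. With PH day 3 replicate 12 included, it rose by 1.90 ± 0.40 after PH (edgeR adjusted p = 0.0014). It was at 0.461 to 2.23 CPM at PH day 0 and 4.42 to 10.4 CPM at PH day 3. Bicc1, an RNA-binding protein of ducts, rose by 2.03 ± 0.37 after CCl4 (adjusted p = 0.00365) and was at 0.08 ± 0.36 after PH (adjusted p = 0.914). The biliary markers Sctr, Cftr and Cldn4 had group means of at most 0.434 CPM in all 4 groups, and were named after their values were seen. Of the progenitor and ductular reaction genes, 3 of 6 tested rose after CCl4 (Afp, Cd24a and Tnfrsf12a, median 2.50) and 1 of 4 after PH (Tnfrsf12a, median 1.30). Afp and Cd24a entered the CCl4 test, and so that count and median, through the CCl4 group. Tnfrsf12a, the receptor of TWEAK, rose by 3.01 ± 0.44 after CCl4 (adjusted p = 0.00312) and by 1.91 ± 0.24 after PH (adjusted p = 2.92e-06). The fetal liver protein Afp, under 10 counts in every control sample, was at 1.47 ± 0.445 CPM with olive oil and 12.1 ± 2.96 CPM with CCl4.

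**Figure D5:**
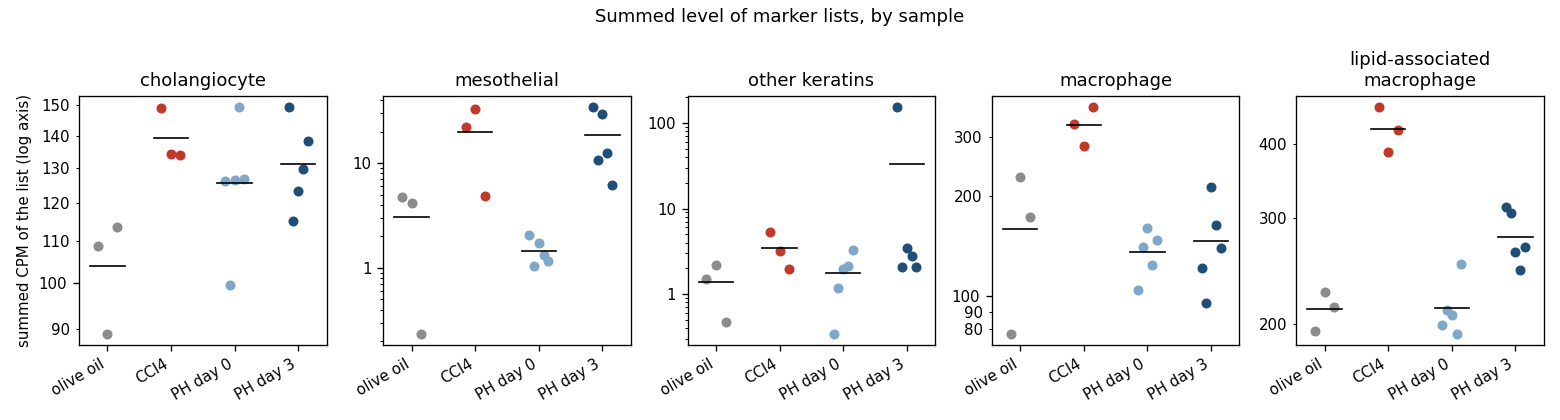
Summed CPM (vertical axes, log scale, with a different range in each panel) of cholangiocyte, mesothelial, other keratin, macrophage and lipid-associated macrophage genes in each sample (points), with the mean (line) of each group. PH day 3 replicate 12 stands alone at 154 CPM for other keratins, and mesothelial sums of PH day 3 (6.12 to 34.4 CPM) lie above those of PH day 0 (1.05 to 2.06 CPM).

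Hepatocytes are the main source of liver Krt8 and Krt18. The sum over 10 hepatocyte markers was 104970 to 114285 CPM with olive oil and 93845 to 126821 CPM with CCl4, with overlap. It was 82770 to 98427 CPM at PH day 0 and 119015 to 138439 CPM at PH day 3, without overlap. Most of that sum was Alb alone, at 54680 ± 6496 CPM (SD) at PH day 0 and 92373 ± 7066 CPM at PH day 3. The part of hepatocyte content in the keratin values was not tested. Among all genes tested, 11.3% rose and 11.6% fell after CCl4, and 9.73% rose and 8.01% fell after PH. Of the hepatocyte markers, 0 of 10 rose after CCl4 and Hpd fell by 1.64 ± 0.28 (edgeR adjusted p = 0.00264), with a median of -0.12. After PH, Alb rose by 0.77 ± 0.11 (adjusted p = 2.41e-05), Hpd fell by 0.35 ± 0.10 (adjusted p = 0.0203) and Apoa1 fell, of 10 tested, with a median of 0.06. Of the endothelial markers, 1 of 8 rose after CCl4 (Lyve1, median 0.26, against 11.3% of all genes), and after PH 0 of 8 rose and Kdr and Clec4g fell by 0.84 ± 0.14 and 0.62 ± 0.16 (adjusted p = 0.000116 and 0.00669). Red cell genes fell in 5 of 5 after CCl4 (median -1.08), with Alas2 at -2.61 ± 0.31 (adjusted p = 0.00116). After PH 1 of 5 fell, Alas2, which went from 168 ± 20.3 to 83.6 ± 17.1 CPM (adjusted p = 3.06e-06). Pancreatic acinar genes were not tested in either comparison and summed to at most 4.52 CPM, in PH day 3 replicate 12.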

How the data were processed

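Liver mRNA of 16 samples was sequenced (RNA integrity number of at least 8 per the labels' protocols). The authors deposited raw counts per gene, made with featureCounts 1.6.2 over exons of Ensembl 95 (GRCm38), with reads assigned by reverse strand and ambiguous reads left out, per the file headers. STAR 2.5.1 and Subread are named per the submitters' processing notes. Symbols came from GENCODE M21, which named 54723 of 54838 identifiers. Groups came from the labels, with replicate numbers 12 to 16 for PH as labelled. No label states separate animals, so a p-value reflects spread among samples alone, which may be technical.

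Counts were tested with edgeR 4.0.16 (R 4.3.3, TMM, filterByExpr with minimum count 10 and total 15), separately per experiment and in 1 fit of 16 samples for the difference. The SE is the log2 change over the root of F. CPM used TMM factors of all samples. DESeq2 1.42.0 and limma 3.58.1 were alternatives. Ratios were tested by exact permutation. Likeness is the Pearson correlation of log2(CPM + 1). Intervals cover counting error only. Replicates differed by a chi-square per degree of freedom of 5.51 to 72.3, so each counted once. The members, the 17 lists and the naming rule (all members and the 2 genes of smallest p per list, other names following from counts) were chosen with earlier results of these data known. Some of the tests without a filter were added after seeing the data. Some genes that the naming rule selects are not reported here.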

Additional observations from a re-analysis of the deposited data

How the results depend on the processing

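Krt8 and Krt18 kept their direction and call in both experiments under every alternative run, over 0.99 to 1.55 and 1.21 to 1.72 after CCl4 and 0.93 to 1.11 and 1.03 to 1.24 after PH. Scaling by library size alone put the median of all genes at 0.46 after CCl4 (0.006 with TMM) and 0.13 after PH (-0.0053 with TMM), and put Sox9 after PH at 0.024 (adjusted p = 0.97). Without a filter, 5 of the 9 genes were called after CCl4 (edgeR), where 8.45% of 19592 genes rose. With the filter kept, leaving out samples gave 3 to 4 called, against 3 with all samples. Sox9 after CCl4 passed with library size scaling (1.47, adjusted p = 0.0228), without a filter (1.05, 0.0483) and in 1 fit of all samples (1.07, 0.0289), and leaving out samples gave 0.68 to 1.49 (adjusted p = 0.0558 to 0.242). Spp1 after CCl4 passed in all alternatives other than an adjusted p under 0.01. The Krt19 difference turned to -0.47 without CCl4 replicate 1 and -0.03 without PH day 0 replicate 14, in a range of -0.47 to 1.02 with samples left out, and Epcam after PH without a filter ranged from -0.40 to 0.35. The log2 difference of the Krt8 to Krt18 ratio after PH was -0.23 to -0.10 with samples left out, and -0.25 to -0.08 after CCl4. Spp1 after PH passed with limma-voom (0.70, adjusted p = 0.0317) and with the replicate number as a block (0.68, 3.25e-05), where 3 genes were called. Spp1 was higher at day 3 in 5 of 5 same-numbered pairs. Same-numbered PH samples correlated by -0.03 to 0.10, not all over the 0.1 set for taking numbers as pairs, so the fit without the block was kept. As a hint from the data, 5 of 10 samples correlated best with their own number, and whether the numbers pair animals is not known. Leaving out samples without a filter was chosen after seeing the data. Counts of at most 33 limit Krt19, Krt7, Krt23, Epcam and Cldn7.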
